A study of Sus scrofa with 2 samples.

Results

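The positional transcription factors of pig back muscle were described across its cell classes, taking every gene of the HOX A to D clusters and of the MEIS, PBX and TBX families that the deposited feature list named by symbol. This gave 55 of 21301 features, namely 36 HOX, 3 MEIS, 4 PBX and 12 TBX genes. The choice used gene names alone and no measured value. The muscle was the longissimus dorsi, which runs beside the spine. Piglets were either Guangdong small-eared spotted pigs (GDSS) or Yorkshire pigs, and each breed gave 1 single-cell library, made with the 10x Genomics v2 kit from 1 g of muscle per piglet. Per the labels, red cells were lysed, dead cells were removed on magnetic beads, and no treatment was given. The labels give neither the number of piglets per library nor their age beyond the mark P0, whose meaning they do not state. With 1 library each, effects of breed, animal, preparation and library cannot be told apart, there is no replicate check, and no p-value is given.

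HOX genes lie in the A, B, C and D clusters, and the paralogue number of a gene follows its place in the cluster and, in the embryo, the order in which it comes on along the body from head to tail. MEIS and PBX proteins are homeodomain partners that bind DNA together with HOX proteins. TBX genes encode T-box factors that pattern limbs, heart, vessels and the body axis, and adult stromal and muscle cells are known to keep part of this embryonic code.

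After filtering, 11050 of 12286 GDSS and 13613 of 14695 Yorkshire barcodes were kept, with a median of 2930 and 3060 unique molecular identifiers (UMIs, each counting 1 captured RNA molecule). Of the kept cells 40 shared a barcode sequence between the libraries. Cells were placed by marker genes into 7 classes, although the labels call them all intramuscular vascular stem cells. Fibro-adipogenic progenitor-like (FAP-like) cells, the stromal progenitors of muscle, numbered 8587 in GDSS and 2741 in Yorkshire. Satellite-like cells, the muscle stem cells, numbered 343 and 3659, and myofibre-like cells 85 and 528. Endothelial-like cells numbered 250 and 1680, mural-like cells (pericytes and smooth muscle) 277 and 633, glia-like cells 194 and 231, and macrophage-like cells 283 and 125. No class was given to 1031 and 4016 cells. Markers of the own class that the gate did not use stood at a median of 1.25-fold (FAP-like, GDSS) to 50.7-fold (myofibre-like, GDSS) above the level of the whole library. The GDSS myofibre-like sum was the shallowest, with 164273 UMIs, and its values are the least exact.

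Levels are UMIs of a gene per 1e6 UMIs of a class (CPM), with 95% Poisson intervals that cover counting error only. RNA set free from broken cells also enters droplets, so each level was set beside an estimate of this free RNA, taken from markers of the other classes. A member was called above free RNA in a class where its interval lay above that estimate in both libraries, with at least 3 UMIs in each and 10 in all. By this rule 33 of the 55 members passed in at least 1 class, against 64.8% of all features. The counts in the paragraphs below are read against the same count over all features, given as a percentage, since deeper sums let more genes pass.

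**Figure D1:**
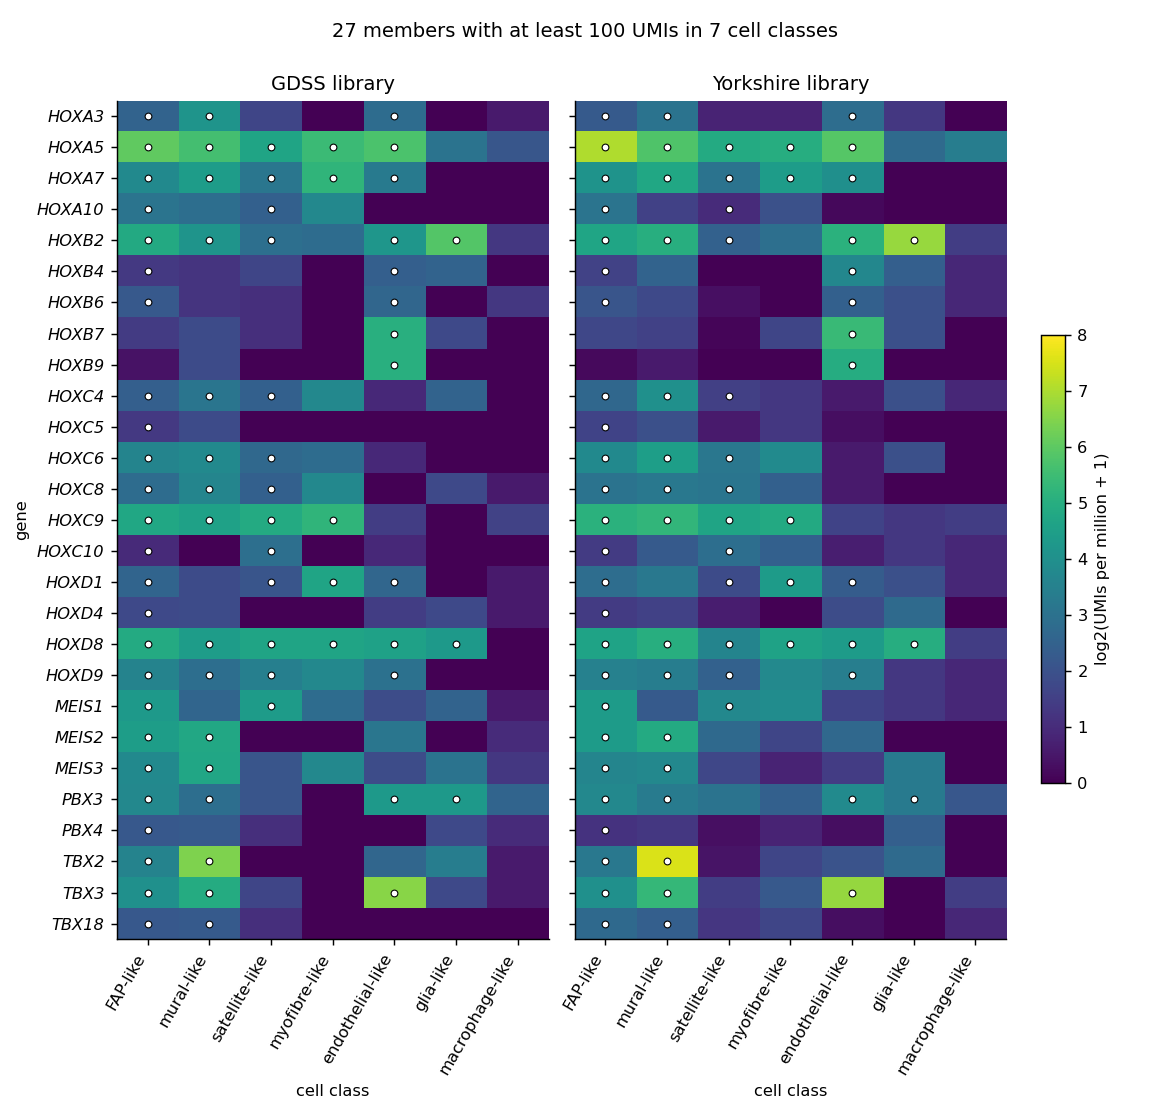
Levels of 27 members with at least 100 UMIs in 7 cell classes, as log2(CPM + 1), for the GDSS library on the left and the Yorkshire library on the right; white dots mark classes in which the level was above the free-RNA estimate in both libraries. FAP-like cells carry the most dots, HOXB7 and HOXB9 are bright in the endothelial-like column, TBX2 in the mural-like column, and the macrophage-like column has no dot.

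FAP-like cells had the most members above free RNA, 30 of 55. That share was not above the 59.1% of all features that passed in this deepest class. The HOX genes among them included HOXA2, HOXA3, HOXA5, HOXA7 and HOXA10, then HOXB2, HOXB4 and HOXB6, HOXC4, HOXC5, HOXC6, HOXC8, HOXC9 and HOXC10, and HOXD1, HOXD3, HOXD4, HOXD8 and HOXD9. HOXA5, a gene of the cervical to upper thoracic code, stood at 64.9 CPM (2033 UMIs) in GDSS and 131 CPM (1648 UMIs) in Yorkshire FAP-like cells. The equal-weighted mean of the 6 other classes was 29.6 and 31.3 CPM, so that FAP-like cells were 2.19-fold (interval 1.75 to 2.79) and 4.20-fold (3.79 to 4.66) higher. Endothelial-like cells, at 52.5 and 58.9 CPM, and mural-like cells, at 47.5 and 54.1 CPM, stood above that mean. In cells thinned to 1500 UMIs each, a HOXA5 UMI was found in 9.29% (GDSS) and 18.6% (Yorkshire) of FAP-like cells, and in 0.357% and 2.42% of macrophage-like cells, a blood lineage. The shares were 8.72% and 8.12% in endothelial-like and 6.15% and 7.97% in mural-like cells. In GDSS the FAP-like interval (8.67% to 9.95%) lay within the endothelial-like one (5.16% to 13.6%). Unthinned, the FAP-like shares were 19.3% and 39.4%, at median depths of 3084 and 3903 UMIs, and the macrophage-like shares 1.77% and 4.0%, at 6272 and 8366 UMIs.

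Among the 30 members with at least 30 UMIs in each library over the classes, 5 were at least 2-fold higher in FAP-like cells than in the other classes in both libraries, against 7.33% of all genes measured. These were HOXA5, HOXC5, the HOX partners MEIS1 and MEIS2, and TBX18, a T-box gene of embryonic mesenchyme. MEIS1 stood at 18.8 and 20.02 CPM in FAP-like cells, 2.89-fold (1.84 to 4.83) and 3.48-fold (2.67 to 4.57) over the other classes. It was not particular to them, as satellite-like cells had 19.95 CPM in GDSS and 12.4 CPM in Yorkshire. MEIS1 was also at least 2-fold higher in satellite-like cells with Leiden clusters, 1 more marker per cell or at most 5% mitochondrial UMIs. MEIS2 stood at 21.1 and 19.9 CPM in FAP-like cells, 3.53-fold (2.46 to 5.25) and 2.84-fold (2.26 to 3.60) over the other classes. It was not particular to them either, as mural-like cells had 27.0 and 28.7 CPM. TBX18 was lower in FAP-like cells, at 3.58 and 5.66 CPM, and 4.33-fold (1.64 to 16.2) and 3.77-fold (2.22 to 6.76) over the other classes. The class with the highest TBX18 level was mural-like in GDSS and FAP-like in Yorkshire. HOXC5 rested on 47 and 26 UMIs, and its GDSS interval (0.918 to 29.8) held 1. HOXB7 and HOXB9 were the 2 members at least 2-fold lower in FAP-like cells with both intervals below 1, against 13.3% of genes, and neither was called in thinned cells. The mean they were set against held the endothelial-like levels, 32.4 and 42.0 CPM for HOXB7 and 32.4 and 30.1 CPM for HOXB9. For HOXB9, FAP-like cells were not lower than satellite-like, myofibre-like, glia-like or macrophage-like cells, in which it was not detected. With Leiden clusters in place of the marker gate, HOXA5 and HOXC5 lost the 2-fold call and MEIS1, MEIS2 and TBX18 kept it. HOXC5 also lost it with at most 5% mitochondrial UMIs and in thinned cells.

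FAP-like cells contain tendon-like and nerve-sheath-like subsets, gated by tendon and perineurial markers. Tenocyte-like cells numbered 505 and 417, other FAP-like cells 8020 and 2193, and the tenocyte-like cells were deeper, with a median of 5900 against 2983 UMIs in GDSS and 6284 against 3526 in Yorkshire. HOXA10, a lumbar-level HOXA gene, stood at 19.95 CPM (64 UMIs) in GDSS and 21.5 CPM (60 UMIs) in Yorkshire tenocyte-like cells, against 6.15 and 3.73 CPM in other FAP-like cells. The tenocyte-like level was 3.24-fold (2.39 to 4.35) and 5.78-fold (3.72 to 9.13) higher. HOXD1, at the head end of the HOXD cluster, stood at 17.8 and 19.8 CPM against 3.49 and 2.71 CPM, which is 5.09-fold (3.60 to 7.13) and 7.29-fold (4.44 to 12.3) higher. These were the only 2 of 21 measured members at least 2-fold higher in tenocyte-like cells in both libraries with intervals clear of 1, against 3.25% of all genes. HOXC4 was the 1 member lower, at 1.87 and 2.51 CPM against 4.53 and 6.66 CPM, against 8.43% of genes. HOXA5 stood at 70.8 and 137 CPM in tenocyte-like and 64.3 and 135 CPM in other FAP-like cells, so the GDSS and Yorkshire levels stood apart in both subsets and the subsets did not.

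Nerve-sheath-like cells were few, 61 and 127, and least certain in GDSS. The free-RNA estimate was 48.4% of the library level in GDSS and 14.6% in Yorkshire. FAP-like markers outside the gate stood at a median of 0.632-fold and 1.54-fold of the library. The gate marker KRT8 had 0 CPM in GDSS and 71.1 CPM in Yorkshire FAP-like cells. In nerve-sheath-like cells 0 of 20 measured members passed in either direction, against 4.3% of genes higher and 0.664% lower. TBX18 had 4 and 16 UMIs there, or 13.1 and 19.2 CPM, and its ratio to other FAP-like cells was 3.56 (0.952 to 9.40) in GDSS and 3.33 (1.77 to 5.94) in Yorkshire. HOXA10 had 0 UMIs in the nerve-sheath-like cells of both libraries, among 306140 and 834013 UMIs, which allows up to 9.799 and 3.597 CPM, beside 6.15 and 3.73 CPM in other FAP-like cells. MEIS2 had 2 and 1 UMIs, or 6.53 and 1.20 CPM, against 20.7 and 21.6 CPM in other FAP-like cells, and the GDSS interval of the ratio (0.0382 to 1.15) held 1.

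Mural-like cells, which wrap capillaries and larger vessels, had 18 of 55 members above free RNA, against 42.5% of features. They had 9 of 30 measured members at least 2-fold over the other classes, against 7.92% of genes, and 0 at least 2-fold under them, against 7.9%. TBX2, a T-box repressor of heart and vessel patterning, stood at 87.3 CPM (68 UMIs) in GDSS and 186 CPM (389 UMIs) in Yorkshire mural-like cells. FAP-like cells had 10.9 and 8.29 CPM, endothelial-like cells 5.25 and 3.1 CPM, and satellite-like cells 0 and 4 UMIs. The mural-like level was 19.9-fold (12.4 to 33.1) and 56.6-fold (40.0 to 82.4) over the other classes. In thinned cells TBX2 had a UMI in 12.3% and 24.4% of mural-like cells, and in 0 of 280 and 0 of 124 macrophage-like cells, which allows 1.07% and 2.42%. Unthinned, the mural-like shares were 18.4% and 41.1%.

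The other members higher in mural-like cells included HOX genes, HOX partners and TBX18. Of the low-numbered HOXA genes, HOXA3 stood at 16.7 and 7.18 CPM, 7.32-fold (3.40 to 15.1) and 3.30-fold (1.71 to 6.02) over the other classes. Endothelial-like cells had 6.12 and 6.32 CPM of HOXA3, so in Yorkshire the 2 classes were close. In mural-like cells HOXA3 was not called above free RNA at a minimum of 30 UMIs or with at most 5% mitochondrial UMIs. Of the thoracic HOXC genes, HOXC6 stood at 12.8 and 21.5 CPM, 3.26-fold (1.27 to 8.11) and 3.44-fold (2.35 to 4.98) higher, and HOXC8 at 11.6 and 8.14 CPM with a GDSS interval (0.920 to 8.23) that held 1. FAP-like cells had 11.1 and 12.8 CPM of HOXC6 and 6.07 and 7.26 CPM of HOXC8. In GDSS the mural-like and FAP-like levels of HOXC6 were thus close, the former on 10 UMIs. Among the partners, MEIS2 stood at 27.0 and 28.7 CPM and MEIS3 at 25.7 and 12.4 CPM. MEIS2 was 5.41-fold (3.22 to 8.67) and 5.17-fold (3.84 to 6.87) and MEIS3 3.88-fold (1.91 to 8.002) and 3.01-fold (1.77 to 5.02) over the other classes. TBX18 rested on 3 and 9 UMIs, and its GDSS interval (0.923 to 17.2) held 1. MEIS1 was not among them, with 5.14 and 3.83 CPM. Set against all other cells summed, where FAP-like cells dominate GDSS, HOXC6, HOXC8, MEIS2 and TBX18 lost the call and HOXA3, MEIS3 and TBX2 kept it. TBX18 also lost it with 1 more marker per cell, with at most 5% mitochondrial UMIs and in thinned cells.

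Within mural-like cells, those with a UMI of MYH11, the smooth muscle myosin heavy chain, were set beside RGS5-positive cells without one. The MYH11-positive cells were deeper, with a median of 3012 against 1664 UMIs in GDSS and 3449 against 2420 in Yorkshire. HOXA5 was lower in the MYH11-positive cells, at 23.1 against 77.1 CPM in GDSS and 39.2 against 94.3 CPM in Yorkshire. The ratio was 0.2998 (0.124 to 0.653) and 0.415 (0.281 to 0.615), and HOXA5 was the 1 of 3 measured members to pass, against 2.7% of genes lower and 4.23% higher. TBX2 stood at 84.8 against 93.7 CPM and 196 against 163 CPM, with intervals of the ratio that held 1 in both libraries.

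Satellite-like cells had 14 of 55 members above free RNA, against 42.4% of features. They included HOXA5, HOXA7, HOXA10, HOXB2, HOXC4, HOXC6, HOXC8, HOXC9, HOXC10, HOXD1, HOXD8, HOXD9 and MEIS1. HOXC9, a thoracic HOXC gene, stood at 28.8 CPM (26 UMIs) in GDSS and 24.6 CPM (302 UMIs) in Yorkshire satellite-like cells, near its FAP-like levels of 26.1 and 33.2 CPM. HOXC10, its neighbour of the thoracic to lumbar transition, was the 1 of 30 members at least 2-fold over the other classes, against 2.26% of genes. It had 6 UMIs in GDSS and 78 in Yorkshire, or 6.65 and 6.35 CPM, against 0.926 and 1.59 CPM in FAP-like cells, and was 22.2-fold (5.29 to 105) and 2.99-fold (1.81 to 5.16) over the other classes. The call was lost in thinned cells, with at most 5% mitochondrial UMIs and against all other cells summed.

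In satellite-like cells 4 of 30 members, HOXB2, TBX2 and TBX3 among them, were at least 2-fold lower in both libraries, against 13.6% of genes. HOXB2 stood at 6.65 and 4.56 CPM, 0.313-fold (0.111 to 0.712) and 0.133-fold (0.0977 to 0.179) of the mean of the other classes, a call lost with Leiden clusters. TBX3, a T-box repressor and close paralogue of TBX2, had 2 and 21 UMIs, or 2.22 and 1.71 CPM. MEIS2 had 0 UMIs in GDSS satellite-like cells, which allows up to 3.32 CPM, and 5.70 CPM in Yorkshire.

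Myofibre-like cells, the differentiated muscle cells, had 5 members above free RNA, HOXA5, HOXA7, HOXC9, HOXD1 and HOXD8, against 22.2% of features. HOXD1 stood at 24.4 CPM (4 UMIs) in GDSS and 19.9 CPM (27 UMIs) in Yorkshire, 8.83-fold (2.22 to 25.9) and 4.82-fold (2.94 to 7.69) over the other classes. It was the 1 of 30 members that were higher there, against 3.38% of genes, and 0 were lower, against 4.14%. The HOXD1 call was lost with at most 5% mitochondrial UMIs and in thinned cells. In satellite-like cells HOXD1 stood at 3.33 and 2.52 CPM.

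Endothelial-like cells, which line the vessels, carried another set of HOX genes. They had 17 of 55 members above free RNA, against 41.2% of features, and 6 of 30 at least 2-fold over the other classes, against 6.8% of genes. HOXB9, a thoracic HOXB gene, had 37 UMIs in GDSS and 252 in Yorkshire endothelial-like cells, or 32.4 (22.8 to 44.6) and 30.1 (26.4 to 34.0) CPM. In FAP-like cells it had 10 and 2 UMIs, or 0.319 and 0.160 CPM, below the free-RNA estimates of 0.4317 and 1.01 CPM, and in satellite-like, myofibre-like, glia-like and macrophage-like cells 0 UMIs in both libraries. HOXB7, a neighbour in the same cluster, had 37 and 352 UMIs, or 32.4 and 42.0 CPM, 25.2-fold (10.4 to 75.0) and 27.0-fold (15.4 to 51.8) over the other classes. FAP-like cells had 1.63 and 2.23 CPM of HOXB7. In thinned endothelial-like cells a HOXB7 UMI was found in 3.08% and 4.78% and a HOXB9 UMI in 4.10% and 3.34%, and in 0 of the macrophage-like cells. Unthinned, the shares were 11.6% and 15.6% for HOXB7 and 10.0% and 9.76% for HOXB9.

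TBX3 stood at 93.6 CPM (107 UMIs) in GDSS and 105 CPM (880 UMIs) in Yorkshire endothelial-like cells, against 29.5 and 38.8 CPM in mural-like and 15.3 and 15.3 CPM in FAP-like cells. It was 11.2-fold (8.02 to 15.9) and 10.3-fold (8.66 to 12.3) over the other classes. HOXB4 and HOXB6 were also higher in endothelial-like cells, with 5 and 6 UMIs in GDSS. The GDSS interval of HOXB4 (0.650 to 10.4) held 1. In thinned cells HOXB7 and TBX3 kept the call, and HOXB4, HOXB6 and HOXB9 lost it. HOXB6 also lost it against all other cells summed. The HOXB9 folds are set by few UMIs elsewhere, 67.3-fold (19.6 to 417) in GDSS and 282.5-fold (70.1 to 3145) in Yorkshire.

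The members at least 2-fold lower in endothelial-like cells were HOXC6, HOXC8, HOXC9, MEIS1, MEIS3 and TBX2, 6 of 30, against 11.4% of genes. For TBX2 the mean of the other classes was set largely by the mural-like level, 87.3 and 186 CPM. The endothelial-like level of TBX2, 5.25 and 3.1 CPM, was above the satellite-like level in both libraries. All 6 lost the call in thinned cells, HOXC6, HOXC8 and MEIS1 with 1 more marker per cell, HOXC6, MEIS1 and MEIS3 with at most 5% mitochondrial UMIs, and TBX2 with Leiden clusters. HOXC9 had 2 UMIs in GDSS and 17 in Yorkshire, or 1.75 and 2.03 CPM, below the free-RNA estimates of 5.38 and 3.18 CPM. It was 0.0901-fold (0.0106 to 0.344) and 0.0963-fold (0.0555 to 0.157) of the mean of the other classes. MEIS1 stood at 2.62 and 2.03 CPM, beside free-RNA estimates of 3.80 and 1.61 CPM. PBX3, a further HOX partner, stood at 19.25 and 13.3 CPM. PBX3 thus passed the free-RNA rule in endothelial-like cells, and MEIS1, MEIS2 and MEIS3 did not pass it in both libraries. MEIS2 passed in Yorkshire alone, at 5.49 CPM (4.02 to 7.32) beside an estimate of 1.37 CPM, and stood at 7.87 CPM (3.60 to 14.9) beside 4.20 CPM in GDSS.

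Lymphatic vessels are a separate endothelial lineage, so endothelial-like cells with a UMI of PROX1, LYVE1, MMRN1 or CCL21 (25 and 111 cells) were set beside those without (225 and 1569). Cells with a marker were deeper, with a median of 4292 against 2578 UMIs in GDSS and 6817 against 3104 in Yorkshire. LYVE1 also stood at 426 and 735.5 CPM in macrophage-like cells, so 1 UMI is weak evidence of the lineage. Of 5 measured members 0 were at least 2-fold higher or lower in both libraries with intervals clear of 1, against 1.11% and 1.21% of genes. HOXB9 stood at 43.5 and 43.2 CPM with a lymphatic marker and 29.6 and 28.2 CPM without. TBX3 stood at 74.0 and 49.96 CPM with and 98.5 and 113 CPM without, and the ratio was 0.443 (0.328 to 0.587) in Yorkshire and 0.751 (0.419 to 1.27) in GDSS. MEIS2 was too shallow to be counted among the 5, and was picked out after its values were seen. It had 26 UMIs with a lymphatic marker and 20 without in Yorkshire, or 24.98 and 2.72 CPM, a ratio of 9.17 (4.93 to 17.3), and 3 and 6 UMIs in GDSS, a ratio of 1.99 (0.322 to 9.31).

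**Figure D2:**
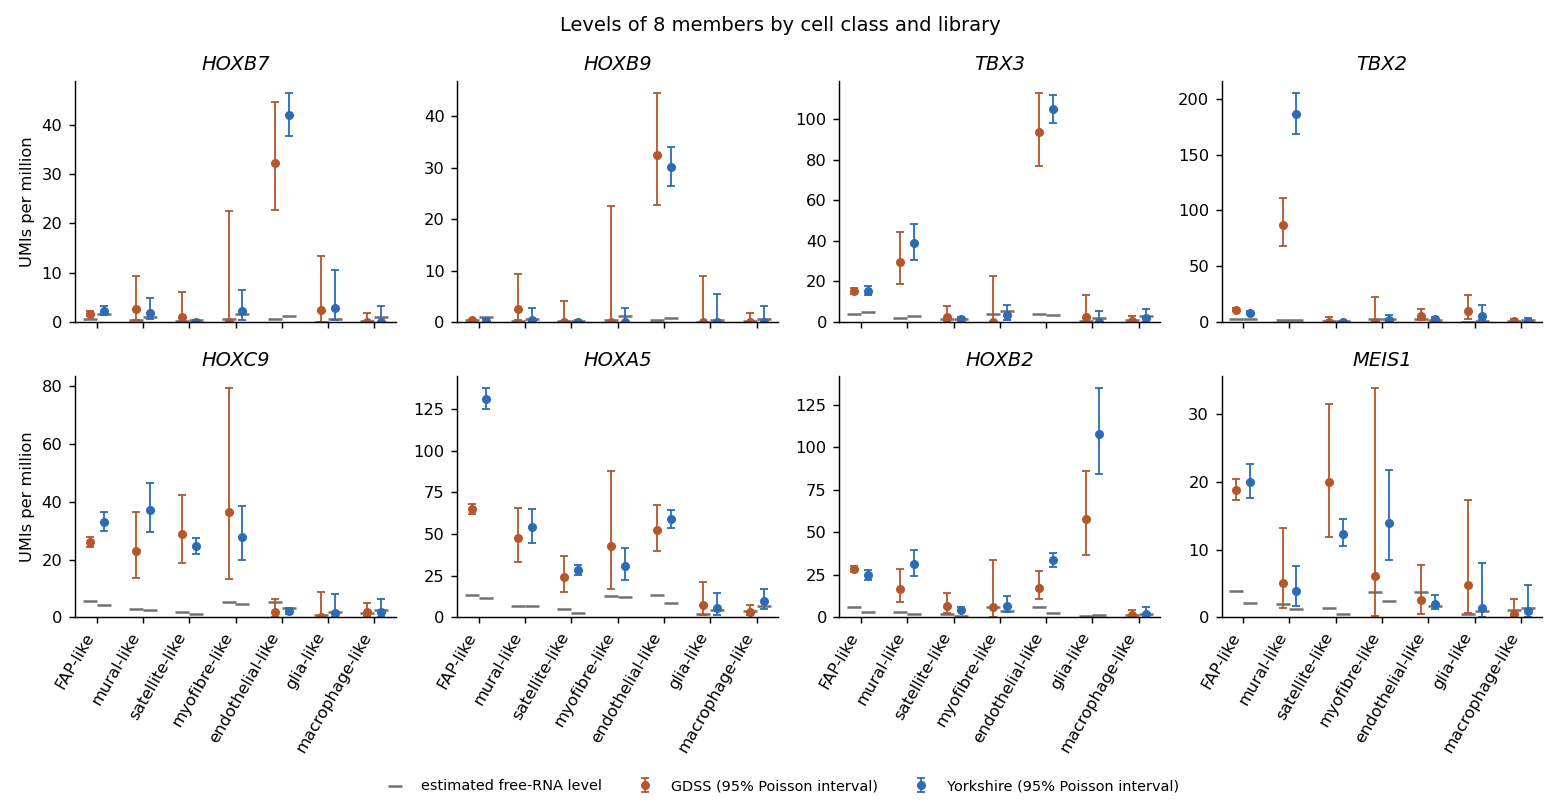
Levels in CPM of 8 members in 7 cell classes, with GDSS in brown, Yorkshire in blue, bars for the 95% Poisson interval and grey marks for the estimated free-RNA level. HOXB7, HOXB9 and TBX3 are highest in endothelial-like cells and TBX2 in mural-like cells, HOXC9 is under the free-RNA marks in endothelial-like cells, and HOXA5 is 64.9 in GDSS and 131 in Yorkshire FAP-like cells.

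Glia-like cells, the Schwann lineage of the nerves, had 4 members above free RNA, with HOXB2, HOXD8 and PBX3 among them, against 35.0% of features. HOXB2, a gene of the hindbrain and anterior neural crest code, stood at 57.6 CPM (24 UMIs) in GDSS and 107 CPM (74 UMIs) in Yorkshire glia-like cells. Every other class in both libraries was lower, from 1.48 CPM in GDSS macrophage-like to 33.5 CPM in Yorkshire endothelial-like cells. HOXB2 was 4.50-fold (2.71 to 7.24) and 6.30-fold (4.84 to 8.10) over the other classes and the 1 of 30 members that were higher, against 8.18% of genes. HOXA5, HOXA7, HOXC9 and TBX3 were the 4 that were lower, against 7.71%. All 4 lost that call with at most 5% mitochondrial UMIs, HOXA7, HOXC9 and TBX3 also with 1 more marker per cell and in thinned cells, and HOXA7 against all other cells summed. HOXA7 had 0 UMIs in both libraries and HOXC9 had 0 and 1.

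Macrophage-like cells, a blood lineage, had 0 of 55 members above free RNA, against 36.2% of features, and 0 of 30 at least 2-fold over the other classes, against 7.66% of genes. All 36 HOX genes together had 22 UMIs in 283 GDSS cells and 23 in 125 Yorkshire cells, or 10.9 and 19.9 CPM, beside free-RNA estimates of 13.05 and 22.7 CPM. At least 2-fold lower than the other classes were 16 of 30 members, against 24.6% of genes, and 8 with at most 5% mitochondrial UMIs and 5 in thinned cells. These cells were the deepest of all, with medians of 6272 and 8366 UMIs.

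Summed over the 36 HOX genes, FAP-like cells had 229 CPM in GDSS and 300.2 CPM in Yorkshire, endothelial-like cells 216 and 256 CPM, and mural-like cells 223.5 and 284 CPM. Satellite-like cells had less, 139 and 111 CPM, which is 0.604-fold (0.502 to 0.721) and 0.369-fold (0.347 to 0.393) of the FAP-like level. Glia-like cells had 101 and 174 CPM and myofibre-like cells 225 and 175 CPM. At a depth of 1500 UMIs per cell single cells showed little of this code. A mean of 0.339 and 0.441 HOX genes was detected per FAP-like cell, and 4.77% and 6.68% of those cells had at least 2.

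The clusters were used unequally. HOXB made up 45.3% of HOX UMIs in GDSS and 50.1% in Yorkshire endothelial-like cells and 64.3% and 67.5% in glia-like cells, against 15.8% and 11.0% in FAP-like and 8.0% and 4.48% in satellite-like cells. HOXC made up 36.0% and 44.3% in satellite-like cells, 21.9% and 20.8% in FAP-like cells and 25.9% and 31.5% in mural-like cells, against 2.02% and 1.67% in endothelial-like cells. The HOXC sum of endothelial-like cells was 4.37 and 4.29 CPM, under the free-RNA estimates of 10.5 and 6.39 CPM. It was 0.0870-fold (0.0282 to 0.204) and 0.0688-fold (0.0479 to 0.0961) of the FAP-like sum. The HOXB sum of endothelial-like cells was 2.70-fold (2.20 to 3.28) and 3.90-fold (3.48 to 4.38) of the FAP-like sum. Between endothelial-like and glia-like cells the HOXB ratio was 1.51 (0.986 to 2.40) and 1.09 (0.871 to 1.39), so the sums did not stand apart, while the genes within them did. Of 112 and 1077 HOXB UMIs in endothelial-like cells, HOXB5 to HOXB8 had 50 and 438 and HOXB9 had 37 and 252. Of 27 and 81 HOXB UMIs in glia-like cells, HOXB5 to HOXB8 had 1 and 4, HOXB9 had 0 in both libraries, and HOXB2 had 24 and 74. Over the FAP-like, mural-like, satellite-like, myofibre-like and endothelial-like classes HOXD was spread more evenly, from 34.7 to 60.9 CPM in GDSS and 19.0 to 56.0 CPM in Yorkshire. The Yorkshire satellite-like HOXD sum was still 0.339-fold (0.2605 to 0.445) of the myofibre-like sum. Outside these classes, glia-like HOXD was 0.443-fold (0.202 to 0.8435) and 0.940-fold (0.619 to 1.374) of FAP-like HOXD. Macrophage-like HOXD was 0.03035-fold and 0.0802-fold of it, on 3 and 4 UMIs.

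**Figure D3:**
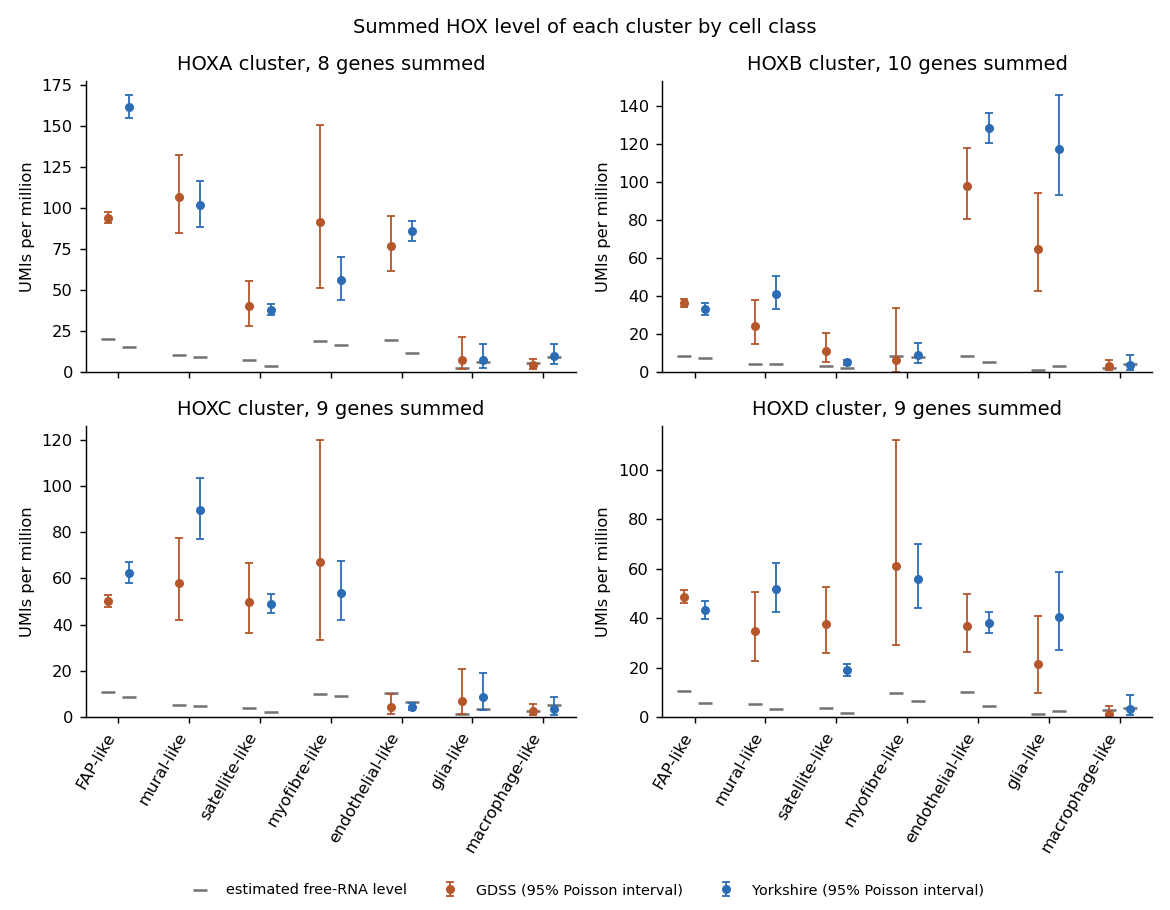
Summed CPM of the HOXA, HOXB, HOXC and HOXD genes in 7 cell classes, with GDSS in brown, Yorkshire in blue, bars for the 95% Poisson interval and grey marks for the estimated free-RNA level. HOXB is highest in endothelial-like and glia-like cells, and HOXC is under the free-RNA marks in endothelial-like cells while it lies between 49.1 and 89.5 in satellite-like, FAP-like, mural-like and myofibre-like cells.

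The thoracic and lumbar-side genes of groups 9 to 13 were then summed by cluster. HOXB9 and HOXB13 gave 32.4 and 30.1 CPM in endothelial-like cells and 0.319 and 0.160 CPM in FAP-like cells, with all UMIs from HOXB9. HOXC9 to HOXC13 gave 27.2 and 34.8 CPM in FAP-like, 35.5 and 31.0 CPM in satellite-like and 2.62 and 2.62 CPM in endothelial-like cells. HOXA10 to HOXA13 gave 7.79 and 7.50 CPM in FAP-like cells, 20.6 and 21.5 CPM in their tenocyte-like subset, and 0.875 and 0.358 CPM in endothelial-like cells. These HOXA sums leave out HOXA9, which the feature list gives by identifier alone and which stood at 26.3 and 38.5 CPM in FAP-like and 5.25 and 9.06 CPM in endothelial-like cells. HOXD9 to HOXD13 differed less between these classes, at 11.65 and 10.7 CPM in FAP-like and 6.998 and 10.7 CPM in endothelial-like cells, with 9.97 and 4.56 CPM in satellite-like and 6.42 and 9.57 CPM in mural-like cells. The genes of the most tail-ward groups were absent or nearly so. Groups 11 to 13 were 9 listed genes, of which HOXA11, HOXB13, HOXC12, HOXC13, HOXD12 and HOXD13 had no UMI in any kept cell, HOXA13 had 19, HOXC11 11 and HOXD11 2 in all.

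Of the 55 members, 10 had no UMI in any kept cell. Besides the 6 HOX genes just named these were HOXB1, at the head end of its cluster, and TBX5, TBX10 and TBX22. TBX5 drives the forelimb programme and TBX4, its hindlimb counterpart, had 3 and 8 UMIs. A further 16 members had 1 to 99 UMIs over both libraries. Among these, HOXA2, HOXB8, HOXD3 and TBX6 were above free RNA in at least 1 class, while HOXA13, HOXB3, HOXB5, HOXC11, HOXD10, HOXD11, PBX2, TBX1, TBX4, TBX19, TBX20 and TBX21 were in none. HOXB8 passed in endothelial-like cells. At these depths a low count does not show absence from the cells.

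HOX genes are packed closely and share long and antisense transcripts, and whether the counting used strand is not given in the sources used here. Part of the UMIs of neighbouring HOX genes may be assigned to the wrong neighbour, and this was not tested.

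The remaining partners were spread over the classes. PBX3 passed in FAP-like, endothelial-like, mural-like and glia-like cells, between 6.42 and 19.25 CPM. PBX4 passed in FAP-like cells alone, at 3.58 and 1.28 CPM. MEIS3 passed in FAP-like cells, at 12.9 and 11.4 CPM, and in mural-like cells. HOXD8 passed in all 6 classes other than macrophage-like cells, between 11.15 and 31.6 CPM, and HOXA7 in all but glia-like and macrophage-like cells. HOXB4, HOXB6, HOXC4, HOXD4 and HOXD9 stood between 1.501 and 11.0 CPM in FAP-like cells of both libraries.

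The libraries were then compared class by class. Over all kept cells, 8 of 37 members with at least 30 UMIs differed at least 2-fold with an interval clear of 1, against 20.5% of genes. HOXA10, HOXD10, MEIS3 and PBX4 were higher in GDSS and HOXB7, HOXB8, HOXB9 and HOXC10 in Yorkshire. For HOXB9, HOXC10 and HOXA10 the ratios within measured classes were smaller. HOXB9 was 2.89-fold (2.23 to 3.80) higher in Yorkshire over all cells, while its endothelial-like levels were 32.4 and 30.1 CPM. HOXC10 was 3.26-fold (2.39 to 4.54) higher in Yorkshire over all cells. Its levels were 6.65 and 6.35 CPM in satellite-like cells, and 0.926 and 1.595 CPM in FAP-like cells, where Yorkshire was 1.72-fold (0.924 to 3.15) of GDSS. HOXA10 was 2.49-fold (2.02 to 3.09) higher in GDSS over all cells and 7.50 and 7.42 CPM in FAP-like cells. FAP-like cells made up 77.7% of kept GDSS and 20.1% of kept Yorkshire cells, endothelial-like cells 2.26% and 12.3%, and satellite-like cells 3.104% and 26.9%.

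HOXA5 showed the reverse order, with 57.3 and 59.8 CPM over all cells, and 64.9 against 131 CPM in FAP-like cells, where Yorkshire was 2.02-fold (1.90 to 2.16) higher. It was the 1 of 31 measured members at least 2-fold higher in Yorkshire FAP-like cells, and PBX4, at 3.58 (112 UMIs) against 1.28 CPM (16 UMIs), the 1 higher in GDSS, against 11.4% of genes apart in either direction. The HOXA5 difference was under 2-fold with at most 5% mitochondrial UMIs (log2 -0.92) and with TMM scaling (log2 -0.82). The median log2 ratio of all genes in FAP-like cells was -0.17 and that of the members 0.01. In endothelial-like cells HOXA5 stood at 52.5 and 58.9 CPM, in mural-like cells at 47.5 and 54.1 CPM and in satellite-like cells at 24.4 and 28.5 CPM, all with overlapping intervals.

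In mural-like cells TBX2 was 2.13-fold (1.64 to 2.80) higher in Yorkshire and MEIS3 2.06-fold (1.09 to 3.84) higher in GDSS, 2 of 12 measured members, against 9.89% of genes. TBX2 was not called with at most 5% mitochondrial UMIs. MEIS3 was not called with that limit, with Leiden clusters, with 1 more marker per cell, in thinned cells or at a minimum of 100 UMIs. In endothelial-like cells HOXB4 was 2.78-fold (1.15 to 8.75) higher in Yorkshire, the 1 of 18 members apart, against 7.78% of genes. HOXD8 was 2.19-fold (1.33 to 3.44) higher in GDSS satellite-like cells, the 1 of 15 apart, against 10.2%. HOXB4 was not called in thinned cells, and HOXD8 neither there nor with at most 5% mitochondrial UMIs. In myofibre-like cells 0 of 6 and in glia-like cells 0 of 2 measured members were apart, against 7.24% and 15.1% of genes. No member of the macrophage-like sums reached 30 UMIs.

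**Figure D4:**
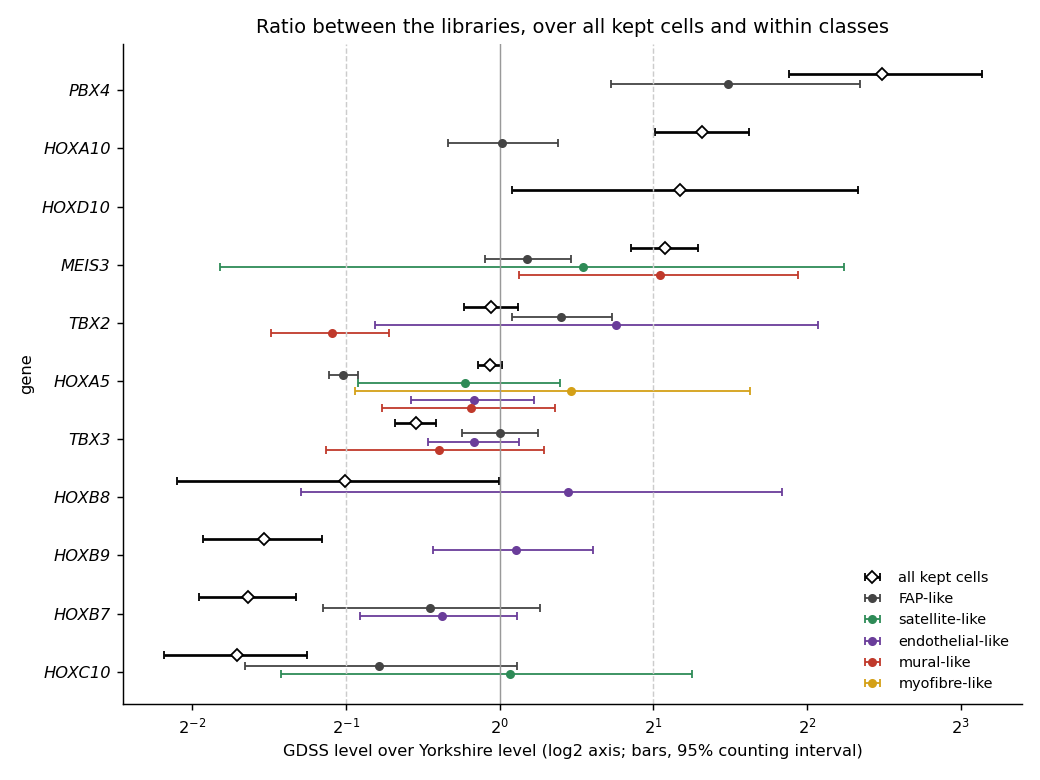
Ratio of the GDSS over the Yorkshire level for 11 members on a log2 axis, over all kept cells (open diamonds) and within each class with at least 30 UMIs over both libraries and a UMI in each (coloured points), with bars for the 95% counting interval and dashed lines at 2-fold. HOXB9, HOXB7, HOXC10 and HOXA10 lie past 2-fold over all cells and inside the 2-fold lines in each class shown, while HOXA5 lies near 1 over all cells and at 2-fold in FAP-like cells.

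The class with the highest level was the same in both libraries for 12 of the 20 members with at least 100 UMIs in each library. Of the 8 that differed, HOXA7, HOXA10, HOXC4, HOXC8 and HOXC9 had the GDSS myofibre-like class on top, with 2 to 6 UMIs each. Leaving that class out, a choice made once the values were known, gave the same top class for 15 of 20. Those that then differed were HOXC9, HOXD8, MEIS1 and TBX18, and HOXD1, whose shared top class was the one left out. For HOXA3, HOXC6, MEIS2, MEIS3 and TBX2 the top class was mural-like, for HOXA5 FAP-like, for PBX3 and TBX3 endothelial-like, for HOXB2 glia-like and for HOXD1 and HOXD9 myofibre-like in both libraries. The shared top class of HOXD1 and HOXD9 also rested on few GDSS UMIs, 4 and 2, and HOXD9 was not above free RNA there.

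Other genes of position were read from fixed lists beside the members, of which 20 of 30 were at least 2-fold higher in some class in both libraries, against 39.8% of all genes. Of 13 other TALE and T-box genes 7 were measured and 1 passed, TGIF1, a TALE repressor, at 275 and 230 CPM in satellite-like cells. Of 5 axial homeobox genes 2 were measured and 1 passed, MEOX2, a somite gene, at 114 and 104 CPM in FAP-like and 127 and 118 CPM in endothelial-like cells. Of 10 limb and head muscle genes 4 were measured and all 4 passed. MSC, a bHLH repressor of myoblasts, was higher in satellite-like cells, at 86.4 and 114 CPM, and in myofibre-like cells. SHOX2, a limb and connective tissue gene, stood at 21.1 and 33.8 CPM in FAP-like and 18.0 and 27.3 CPM in mural-like cells, and EN1, a dermomyotome gene, at 9.58 and 8.45 CPM in FAP-like cells. Of 11 regulators of HOX chromatin 10 were measured and 1 passed, BMI1, a Polycomb subunit, at 24.0 and 43.5 CPM in glia-like cells.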

How the data were processed

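The values deposited by the authors were whole UMI counts of each gene in each barcode. The submitters' processing notes name Cell Ranger and R 3.5.2, neither with a role, and per the file headers the software version was 3.1.0. No build or annotation was used, since these are not given in the sources used here, and no coordinate or sequence is printed. The authors' counts were used unchanged. Of 21301 features, 14846 carried a symbol in the deposited list.

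Barcodes were kept with at least 500 genes, at most 10% mitochondrial UMIs and a scrublet doublet score under 0.3, which took out 75 GDSS and 218 Yorkshire barcodes by score. Each cell was scored by 7 marker lists (mean log level, capped at the 90th percentile of positive cells), and took the top class where at least 2 markers (FAP-like, 4) were detected and its score was at least 1.5 times the next. Tenocyte-like cells had at least 3 and nerve-sheath-like cells at least 2 of their markers. These gate numbers, the downward call, the splits by MYH11 and lymphatic markers and the interval rule for subsets were set after the data were seen. ERBB3 was dropped as a glial marker, as it had UMIs in most cells.

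Counts were summed per class and library. Folds over other classes weighted the 6 others equally, and ratios carry conditional binomial intervals at 95%, exact between 2 sums and approximate (from an effective count) over the mean of other classes. Shares carry exact Clopper-Pearson intervals. A count of 0 allows up to 3 counts. For the fold over other classes at least 3 UMIs were needed in each library, and the interval was not part of the upward call. Free RNA was the median, over markers of other classes outside the gate, of the level in the class over that of the library, times the member's library level. Members with at least 100 UMIs are named with values, and of related genes up to 3 per list that passed. Some genes are not reported here by name, although counts and sums include them. The members and lists were chosen with earlier results of these data known. Alternatives were Leiden clusters, 1 more marker, at most 5% mitochondrial UMIs, no doublet filter, thinning to 1500 UMIs, other thresholds, pooled weights and edgeR TMM factors. Library ratios with their call and the upward class call were first tested on simulated sums with known folds. Thinning was checked on real cells for the set depth alone. The free-RNA rule, the downward call and the subset rule were not tested in this way. Tools were Python 3.11.15, scanpy 1.11.5, numpy 2.4.6, scipy 1.17.1, pandas 2.3.3, R 4.3.3 and edgeR 4.0.16 (TMM only).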

Additional observations from a re-analysis of the deposited data

Results flagged for a closer look

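HOXB2 stood on opposite sides of the other classes in FAP-like cells of the libraries. It was 1.60-fold of their mean in GDSS and 0.805-fold in Yorkshire, with intervals on either side of 1, and the difference itself was not tested. The FAP-like levels were 28.3 and 24.8 CPM, and the glia-like level, which enters the mean of the other classes, was 57.6 and 107 CPM.

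HOXA9 fell outside the members because the deposited list gives it by identifier alone (ENSSSCG00000028997, a symbol taken from a reference table of gene names). It had 932 UMIs in GDSS and 1198 in Yorkshire kept cells. It was above free RNA in FAP-like cells (26.3 and 38.5 CPM), satellite-like cells (22.2 and 21.9 CPM), myofibre-like cells (42.6 and 19.2 CPM) and mural-like cells (16.7 and 26.8 CPM), and not in endothelial-like cells, where it stood at 5.25 and 9.06 CPM. The HOXA sums of the report leave it out.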

How the results depend on the processing

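Of the counts recomputed under an alternative, 191 stayed within 1.5 times the reported count and 59 did not. Of the values of single members, 248 stayed within their interval and 17 did not. No value changed sign. The GDSS classes other than FAP-like held few UMIs, down to 164273, so that calls there rest on few counts. With Leiden clusters, members at least 2-fold over the other classes became 3 in FAP-like, 2 in satellite-like and 2 in myofibre-like cells, and members at least 2-fold under them 1 in mural-like and 9 in glia-like cells. The members above free RNA became 8 in glia-like and 1 in macrophage-like cells, those higher in GDSS 6 in satellite-like, 2 in myofibre-like, 1 in endothelial-like and 0 in mural-like cells, and those higher in Yorkshire 2 in mural-like cells. With 1 more marker per cell, satellite-like cells had 2 members over the other classes and 2 higher in GDSS, mural-like cells 0 higher in GDSS and 4 in Yorkshire, and glia-like cells 1 under the other classes and 1 higher in Yorkshire. With at most 5% mitochondrial UMIs, the members above free RNA became 7 in satellite-like, 3 in myofibre-like and 2 in glia-like cells, those over the other classes 0 in myofibre-like, and those under them 3 in endothelial-like, 0 in glia-like and 8 in macrophage-like cells. The members apart between the libraries became 0 in FAP-like (Yorkshire), satellite-like (GDSS) and mural-like cells (both).

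In cells thinned to 1500 UMIs, which holds fewer counts by construction, the members above free RNA became 7 in satellite-like, 1 in myofibre-like and 10 in endothelial-like cells, those over the other classes 0, 0 and 2, and those under them 0 in FAP-like, 0 in endothelial-like, 1 in glia-like and 5 in macrophage-like cells. The members higher in GDSS became 0 in satellite-like and mural-like cells, and those higher in Yorkshire 0 in endothelial-like, 2 in mural-like and 1 in glia-like cells. At 1.5-fold, 11 members were over the other classes in FAP-like, 2 in satellite-like and 3 in myofibre-like cells, and 2 were higher in Yorkshire in FAP-like, endothelial-like and mural-like and 1 in satellite-like and glia-like cells. Against all other cells summed, 0 were over in satellite-like and 4 in mural-like cells and 1 was under in mural-like cells. At 2 times the free-RNA level myofibre-like cells had 3 members, and at 30 UMIs glia-like cells had 2. At 100 UMIs mural-like cells had 0 higher in GDSS, and with TMM factors FAP-like cells had 0 higher in Yorkshire. Beyond the thinned sums the cause was not tested. No paired analysis was possible because each breed had 1 library.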
